A study of Rattus norvegicus with 15 samples.

Results

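The set described here holds 7 genes of the interferon response and of antigen presentation, out of the 14497 genes with a symbol of their own on the array. They are Ifit2, Ifit3, Bst2 and Gbp2, which are effectors that interferons induce, and Psmb8, B2m and RT1-CE13, which make or carry peptides for display on the cell surface. The genes were chosen by name, with the values of these same arrays known. Earlier results had singled out Ifit2 for a lower level in 30C than in 30W, and Bst2 and RT1-CE13 for a higher level in 30W than in 1W. Values in those 2 comparisons are therefore given as a description, with no test. Of the remaining comparisons only 1C against Sal shares no array with them, and the genes were chosen with all of them known, so their tests are no independent evidence either.

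Expression was measured in nucleus accumbens of male Sprague-Dawley rats on 15 Affymetrix arrays, in 5 groups of 3, in a study of how cocaine craving grows over abstinence. The control group, Sal, self-administered saline for 6 h a day over 10 days, and its labels give neither a withdrawal time nor a test. The other groups self-administered cocaine at 0.75 mg/kg per infusion on the same schedule. Rats then had 1 day (1W) or 30 days (30W) of withdrawal. Rats of 1C and 30C were withdrawn for 1 or 30 days as well and then had an extinction test, in which cues were given and cocaine seeking was recorded. All rats carried a catheter in the jugular vein, and all were anaesthetised with xylazine and ketamine for that surgery. Whether RNA of several rats was pooled for an array is not stated in the labels, so p-values measure only the spread between these samples, which may be technical.

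Interferons are cytokines that signal through cell-surface receptors, JAK kinases and STAT transcription factors. Type I interferons act mainly on promoters with an interferon-stimulated response element (ISRE), and type II interferon also acts on promoters with a gamma-activated site (GAS). The proteins induced block the replication or release of viruses, and they raise the cutting, transport and display of peptides on MHC class I molecules, which CD8+ T cells read. In brain, microglia and vessel cells are strong responders, and neurons and astrocytes respond as well.

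The promoters of the 7 genes were searched for both elements, because these letters are what the STAT and IRF factors of the pathway are known to bind. RefSeq promoters of assembly GRCr8, from 250 bases before to 50 bases after the annotated start, were found for 6 of the 7 genes, all but Ifit2. The ISRE core GAAANNGAAA, searched on both strands, was present in 5 of these 6 promoters. It was present in 3.92% of all 33469 promoters of the same length. The 5 promoters are printed 5′ to 3′ in the direction of the gene, from 170 bases before to 10 bases after the start, with the element letters in capitals.
Ifit3: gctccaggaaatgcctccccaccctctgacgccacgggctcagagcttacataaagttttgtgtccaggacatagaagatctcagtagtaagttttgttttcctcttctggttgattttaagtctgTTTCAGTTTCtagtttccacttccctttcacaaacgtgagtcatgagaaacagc
Bst2: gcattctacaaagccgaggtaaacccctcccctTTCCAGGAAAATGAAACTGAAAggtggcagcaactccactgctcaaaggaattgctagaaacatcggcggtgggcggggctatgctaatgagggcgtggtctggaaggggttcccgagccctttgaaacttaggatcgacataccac
Psmb8: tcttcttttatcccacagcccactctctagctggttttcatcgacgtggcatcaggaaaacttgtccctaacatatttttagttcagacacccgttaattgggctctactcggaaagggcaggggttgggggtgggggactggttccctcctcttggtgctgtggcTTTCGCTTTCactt
Gbp2: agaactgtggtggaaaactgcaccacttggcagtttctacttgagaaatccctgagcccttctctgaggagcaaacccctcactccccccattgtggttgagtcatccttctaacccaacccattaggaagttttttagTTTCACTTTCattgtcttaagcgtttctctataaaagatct
B2m: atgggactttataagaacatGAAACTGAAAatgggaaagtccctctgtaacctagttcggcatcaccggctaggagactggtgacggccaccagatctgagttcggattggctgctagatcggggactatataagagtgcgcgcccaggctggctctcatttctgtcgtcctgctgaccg
These windows lie at chr1:241527156-241527335 (+ strand) for Ifit3, chr16:18254958-18255137 (- strand) for Bst2 and chr20:4657022-4657201 (- strand) for Psmb8. They lie at chr2:234005557-234005736 (+ strand) for Gbp2 and chr3:129549160-129549339 (+ strand) for B2m. The element began 4 bases before the start in Psmb8, 31 bases before it in Gbp2 and 44 bases before it in Ifit3. In B2m it began 150 bases before the start. Bst2 had 2 overlapping ISRE cores, at 131 and 125 bases before the start. The GAS letters TTCNNNGAA, searched on both strands, were found in Bst2 and Psmb8, and in 8.87% of all promoters. In Bst2 they began 137 bases before the start and overlapped the first ISRE core, so the capitals there cover both elements. In Psmb8 they lay 245 bases before the start, outside the printed stretch. The promoter of RT1-CE13 held neither set of letters. A match is a run of letters and not a measured binding site, and a promoter without one may still respond.

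Values are log2 RMA intensities, in which a difference of 1 is a doubling, and the level of one gene's probes cannot be set against that of another's. Markers of the medium spiny neurons that define the tissue were high on every array. Ppp1r1b ranged from 11.80 to 12.39 and Drd1 from 9.54 to 10.31. All 7 genes were among the 11778 genes kept by a filter on low values, which asked that at least 3 arrays read the gene higher than their own 30th percentile. Ifit2, Gbp2, B2m and RT1-CE13 were above it on all 15 arrays, Ifit3 on 13 and Psmb8 on 11. Bst2 was above it on 5 arrays only, 3 of 30W and 2 of 1C, so it entered the test through the group in which it was highest. Correlations between arrays ranged from 0.9929 to 0.9967. RNA came from whole tissue, in which more cells of a type and more RNA per cell cannot be told apart.

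**Figure D1:**
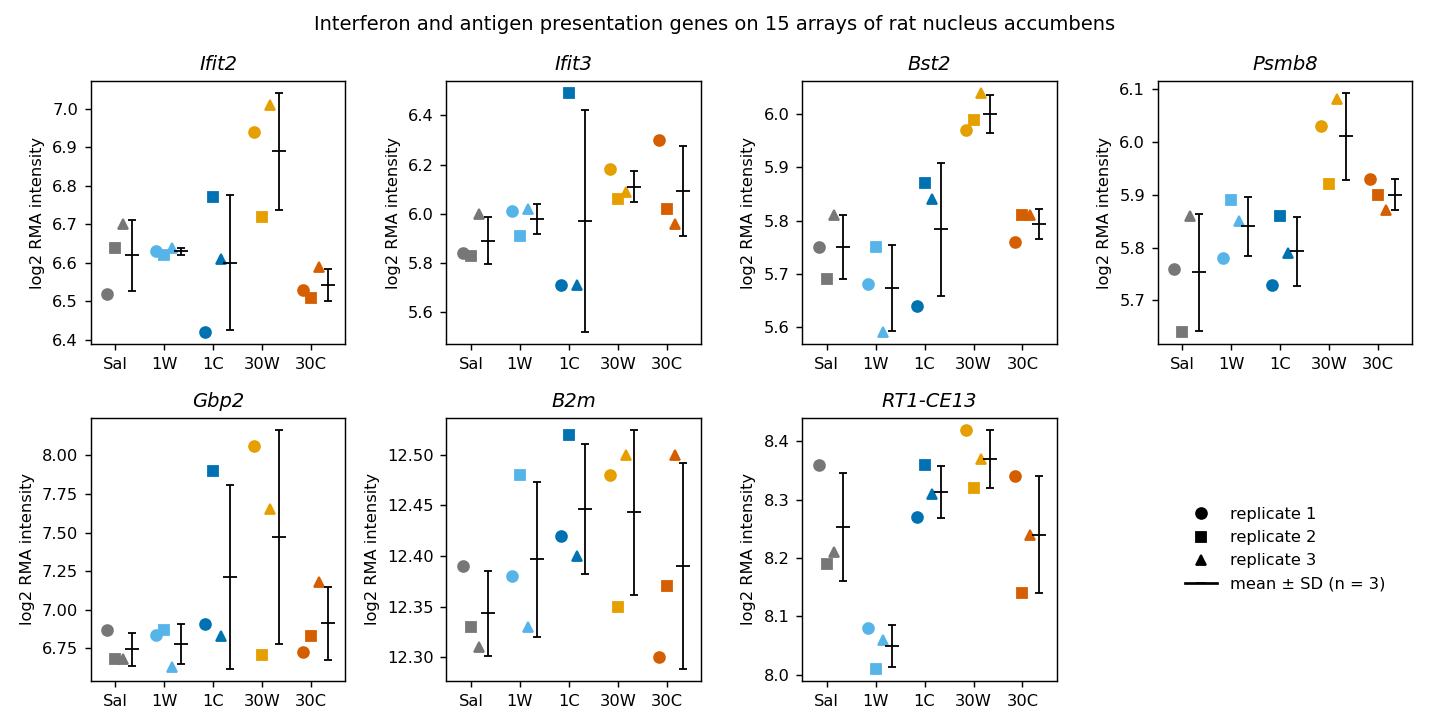
Log2 RMA intensity of each of the 7 genes (vertical axes, separate scales) in the groups Sal, 1W, 1C, 30W and 30C (horizontal axes), with 1 symbol per array and the mean ± SD of 3 arrays in black. Bst2 was higher on all 3 arrays of 30W than on the other 12, RT1-CE13 was lower on all 3 arrays of 1W than on the other 12, and Gbp2 was high on 2 arrays of 30W and 1 array of 1C.

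Ifit2 encodes an interferon-induced protein with tetratricopeptide repeats that binds RNA and limits viral translation. Its log2 intensity was 6.94, 6.72 and 7.01 on the arrays of 30W, in the order of replicates 1 to 3. It was 6.53, 6.51 and 6.59 in 30C and 6.63, 6.62 and 6.64 in 1W. In Sal it was 6.52, 6.64 and 6.70, and in 1C it was 6.42, 6.77 and 6.61. The 30W arrays lay above all arrays of 30C, 1W and Sal, and 1C replicate 2 lay inside the range of 30W. Group means ran from 6.89 ± 0.15 (SD, n = 3) in 30W through 6.63 ± 0.01 in 1W, 6.62 ± 0.09 in Sal and 6.60 ± 0.17 in 1C to 6.54 ± 0.04 in 30C, and each pair of neighbours below 30W overlapped.

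Ifit3, a partner of Ifit2 in RNA-binding complexes, was measured at 6.18, 6.06 and 6.09 in 30W and at 6.30, 6.02 and 5.96 in 30C. In 1W it was 6.01, 5.91 and 6.02, and in Sal 5.84, 5.83 and 6.00. The arrays of 1C read 5.71, 6.49 and 5.71, so this group held both the highest array of the series and the lowest. Group means of Ifit3 were 6.11 ± 0.06 (SD, n = 3) in 30W, 6.09 ± 0.18 in 30C, 5.98 ± 0.06 in 1W, 5.97 ± 0.45 in 1C and 5.89 ± 0.10 in Sal. Neighbours in this order all overlapped. The SD of 1C rested on replicate 2.

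Bst2 encodes tetherin, a membrane protein that holds budding viruses at the cell surface. It was measured at 5.97, 5.99 and 6.04 in 30W and at 5.76, 5.81 and 5.81 in 30C. In 1W it was 5.68, 5.75 and 5.59, in 1C 5.64, 5.87 and 5.84, and in Sal 5.75, 5.69 and 5.81. The 3 arrays of 30W were above the other 12, and the 4 remaining groups overlapped in the order 30C, 1C, Sal and 1W. Of all 11778 genes, 52 (0.442%) had their 30W arrays above the other 12. Bst2 was singled out for a higher level in 30W than in 1W, and it entered the filter through its 30W arrays. The share therefore does not show how unusual Bst2 is. Means of Bst2 were 6.00 ± 0.04 (SD, n = 3) in 30W, 5.79 ± 0.03 in 30C, 5.79 ± 0.12 in 1C, 5.75 ± 0.06 in Sal and 5.67 ± 0.08 in 1W.

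Gbp2, a guanylate-binding GTPase that acts on membranes of pathogens, had the widest range of the 7 genes, 1.43 on the log2 scale or 2.7-fold. It was measured at 8.06, 6.71 and 7.65 in 30W and at 6.91, 7.90 and 6.83 in 1C. In 30C it was 6.73, 6.83 and 7.18, in 1W 6.84, 6.87 and 6.63, and in Sal 6.87, 6.68 and 6.68. Only 30W replicates 1 and 3 and 1C replicate 2 exceeded 7.18, and 30W replicate 2 lay inside the range of Sal. The mean of 7.47 ± 0.69 (SD, n = 3) in 30W and that of 7.21 ± 0.59 in 1C rested on these 3 arrays. The means of 6.91 ± 0.24 in 30C, 6.78 ± 0.13 in 1W and 6.75 ± 0.11 in Sal overlapped them and one another in their arrays.

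Among the genes of antigen presentation, Psmb8 encodes a catalytic subunit of the immunoproteasome, which cuts proteins into peptides suited to class I molecules. It was measured at 6.03, 5.92 and 6.08 in 30W and at 5.93, 5.90 and 5.87 in 30C. In 1W it was 5.78, 5.89 and 5.85, in 1C 5.73, 5.86 and 5.79, and in Sal 5.76, 5.64 and 5.86. The 30W arrays were above all arrays of 1W, 1C and Sal, but 30W replicate 2 was below 30C replicate 1. Means of Psmb8 were 6.01 ± 0.08 (SD, n = 3) in 30W, 5.90 ± 0.03 in 30C, 5.84 ± 0.05 in 1W, 5.79 ± 0.06 in 1C and 5.75 ± 0.11 in Sal, with overlap between all neighbours.

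RT1-CE13 is a gene of the rat class I heavy chain family, whose members present the peptides. It was measured at 8.08, 8.01 and 8.06 in 1W and at 8.42, 8.32 and 8.37 in 30W. In 1C it was 8.27, 8.36 and 8.31, in 30C 8.34, 8.14 and 8.24, and in Sal 8.36, 8.19 and 8.21. Here the group that stood apart was 1W, with its 3 arrays below the other 12, as in 33 (0.28%) of all 11778 genes. RT1-CE13 was singled out in 30W against 1W, so the share does not show how unusual its 1W arrays are. The means of the other groups, 8.37 ± 0.05 (SD, n = 3) in 30W, 8.31 ± 0.04 in 1C, 8.25 ± 0.09 in Sal and 8.24 ± 0.10 in 30C, overlapped with their neighbours, above 8.05 ± 0.03 in 1W. Rat class I genes are near-identical in stretches and their number differs between strains, so which of them the probes read is uncertain. No other RT1 class I gene on the array had all 3 arrays of 1W below the other 12. Among those other genes the log2 difference between 30W and 1W ran from -0.04 in RT1-O1 to 0.26 in RT1-CE3. Relatives shared part of the low level in 1W. RT1-CE3, RT1-CE4, RT1-CE7 and RT1-M5 were higher in 30W than in 1W without overlap. They were 4 of 35 other class I presentation genes, beside 5.53% of all genes. In 1C against 1W the 4 of 35 were RT1-CE3, RT1-CE4, RT1-S3 and Psmb9, beside 3.57%. In both comparisons 0 of the 35 were lower without overlap.

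B2m, the light chain shared by all class I molecules, varied least, over 0.22 on the log2 scale. It was measured at 12.48, 12.35 and 12.50 in 30W, 12.42, 12.52 and 12.40 in 1C and 12.38, 12.48 and 12.33 in 1W. In 30C it was 12.30, 12.37 and 12.50, and in Sal 12.39, 12.33 and 12.31. Means ran from 12.45 ± 0.07 (SD, n = 3) in 1C through 12.44 ± 0.08 in 30W, 12.40 ± 0.07 in 1W and 12.39 ± 0.10 in 30C to 12.34 ± 0.04 in Sal, and all neighbours overlapped.

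**Figure D2:**
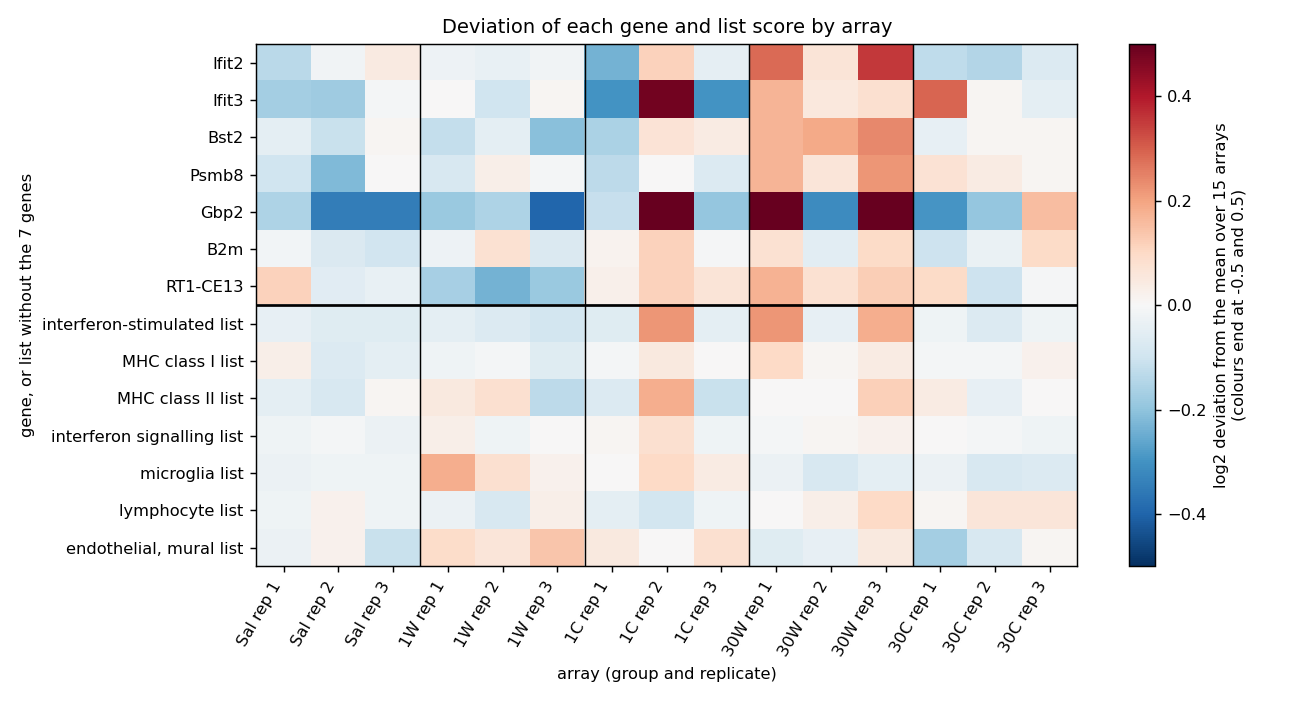
Deviation of each gene from its own mean over the 15 arrays (upper 7 rows, log2 scale, colours ending at -0.5 and 0.5) and the mean deviation of gene lists that leave the 7 genes out (lower rows), with 1 column per array. The interferon-stimulated list was high on 30W replicates 1 and 3 and 1C replicate 2, at 0.22, 0.18 and 0.22, and between -0.09 and -0.02 on the other 12 arrays.

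In 30W against 1W, which asks what differs after 30 days of withdrawal compared with 1 day, all 7 genes had a higher mean in 30W. The median log2 difference was 0.25, beside -0.02 over all genes, of which 39.7% had a higher mean in 30W. Groups did not overlap for 5 of the 7, beside 5.53% of all genes in that direction. Bst2 and RT1-CE13, which were singled out in this comparison, are among the 5. The log2 differences were 0.33 ± 0.06 (SE) for Bst2, 0.32 ± 0.06 for RT1-CE13, 0.25 ± 0.09 for Ifit2, 0.17 ± 0.06 for Psmb8 and 0.13 ± 0.16 for Ifit3. Gbp2 and B2m overlapped. By the Benjamini-Hochberg adjusted p of limma, 0% of all genes passed 0.05 in this comparison, while 10.1% had an unadjusted p under 0.05. The deposited arrays were not fully level in the low range: the 25th percentile of the arrays was 5.475 to 5.509 in 1W and 1C and 5.535 to 5.590 in 30W and 30C. The 1177 genes of lowest mean level, up to 6.22, among which Ifit3, Bst2 and Psmb8 fall, had a median difference of 0.07. When arrays were quantile-normalized again or centred on their median, Bst2 and RT1-CE13 alone stayed apart, 2 of 7 in place of 5. With centring, the shares of all genes apart were 2.67% higher and 22.1% lower, in place of 5.53% and 10.5%.

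In 30C against 30W, which asks what the extinction test goes with after 30 days, all 7 means were lower in 30C. The median log2 difference was -0.13, beside 0.00 over all genes, of which 52.4% were higher in 30C. Groups did not overlap for Ifit2, at -0.35 ± 0.09 (SE), and for Bst2, at -0.21 ± 0.06, which is 2 of 7, beside 3.87% of all genes in that direction. Ifit2 was singled out in this comparison, and Bst2 entered the filter through its 30W arrays. The count was 5 of 7 without 30C replicate 1, beside 10.7% of all genes, and 5 of 7 without 30W replicate 2, beside 7.11%. Leaving out an array makes separation easier by construction: over the 8 comparisons, between 5.17% and 20.1% of all genes were then apart in 1 direction. By the adjusted p of limma 0% of all genes passed, and 3.93% had an unadjusted p under 0.05. Both this comparison and the former use the arrays of 30W, so their opposite signs are not separate observations.

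In 30W against Sal, all 7 genes again had a higher mean in 30W, with a median log2 difference of 0.25 beside -0.01 over all genes, and none passed the adjusted threshold in limma. Groups did not overlap for 4 of 7, Bst2 among them, beside 6.47% of all genes. The 25th percentile of the arrays was 5.511 to 5.565 in Sal and 5.535 to 5.590 in 30W. The 1177 genes of lowest mean level, among which Ifit3, Bst2 and Psmb8 fall, had a median difference of 0.04. Psmb8 was above the filter on 1 of the 3 arrays of Sal. Psmb8 differed by 0.26 ± 0.06 (SE), with a limma adjusted p of 0.36. Bst2 differed by 0.25 ± 0.06, given with no p, since it reached the test through its 30W arrays and was above the filter on 0 of the 3 arrays of Sal. Ifit2 differed by 0.26 ± 0.09 (adjusted p = 0.48) and Ifit3 by 0.22 ± 0.16 (adjusted p = 0.82), both higher on 3 of 3 arrays. The choice of Ifit2 had used the same 30W arrays, so its p is no independent evidence. Gbp2 had the largest difference, 0.73 ± 0.30, with overlapping groups and a limma adjusted p of 0.58. Of all genes 0% passed the adjusted threshold and 7.6% had an unadjusted p under 0.05, Ifit2, Psmb8 and Gbp2 among them. Gbp2 did not reach that mark without 30W replicate 1 or 3 or without Sal replicate 2 or 3. All 7 genes were apart without 30W replicate 2, beside 10.1% of all genes, and without Sal replicate 1, beside 12.0%. After further quantile normalization or centring, 3 were apart, Ifit3, Bst2 and Psmb8. Centring moved the shares of all genes from 6.47% higher and 7.19% lower to 3.55% and 14.7%.

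The comparison of 30C against 1C holds neither 30W nor 1W. There 3 genes had a higher and 4 a lower mean in 30C, with a median log2 difference of -0.06 beside -0.01 over all genes. For Bst2 the difference was 0.01, with a 95% interval of -0.13 to 0.14. For RT1-CE13 it was -0.07, with an interval of -0.20 to 0.06. Psmb8 alone was apart, by 0.10 ± 0.06 (SE, limma adjusted p = 0.91), beside 3.82% of all genes. No gene was apart after further quantile normalization or centring, and centring moved the shares of all genes from 3.82% higher and 5.87% lower to 1.86% and 12%. Without 1C replicate 2, Ifit3 was apart as well, 2 genes in all, beside 8.91% of all genes. Gbp2 and B2m were lower in 30C without 30C replicate 3, beside 13.7% of all genes. Ifit2 and Bst2 were lower without 1C replicate 1 (8.9%), and RT1-CE13 without 30C replicate 1 (14.8%). In limma 0% of all genes passed the adjusted threshold and 5.48% had an unadjusted p under 0.05, none of them among the 7.

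In 1C against 1W, the extinction test after 1 day, RT1-CE13 was higher in 1C by 0.26 ± 0.06 (SE), on 3 of 3 arrays. Its unadjusted p in limma was 0.00062 and its adjusted p was 1. RT1-CE13 was singled out in 30W against 1W, which used the same 1W arrays. These p-values therefore test values that the choice had used, and no conclusion is drawn from them. RT1-CE13 was the only gene of the 7 whose groups were apart, beside 3.57% of all genes. With centring the shares were 2.7% higher and 5.52% lower in place of 3.57% and 4.3%, and RT1-CE13 was still apart. Ifit2 differed by -0.03, with a 95% interval of -0.22 to 0.15, beside -0.35 in the test after 30 days. Whether the 2 differences of Ifit2 themselves differ was not tested, since Ifit2 was singled out by one of them. A second gene was apart and higher without 1C replicate 1 (Bst2), beside 6.85% of all genes. The same held without 1C replicate 3 (Gbp2, 7.62%) or 1W replicate 2 (B2m, 7.18%). Ifit2 and Ifit3 were lower in 1C without its replicate 2, beside 8.29% of all genes. Of all genes 0% passed the adjusted threshold and 4.02% had an unadjusted p under 0.05.

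Against Sal, the difference of RT1-CE13 in 1W was -0.20 ± 0.06 (SE, limma adjusted p = 0.83). The choice of RT1-CE13 had used these 1W arrays, so this p is no independent evidence. RT1-CE13 was the only one of the 7 genes apart and lower in that comparison, beside 3.25% of all genes. Bst2 joined it without 1W replicate 2. Ifit3 was higher in 1W without 1W replicate 2, B2m without Sal replicate 1, and Ifit3 and Psmb8 without Sal replicate 3. Centring moved the shares of all genes from 4.84% higher and 3.25% lower to 6.24% and 2.58%. Of all genes, 0% passed in limma and 4.87% had an unadjusted p under 0.05. In 1C against Sal, B2m was apart and higher by 0.10 ± 0.06 (limma adjusted p = 1), beside 3.97% of all genes, but overlapped after further quantile normalization. Bst2 joined it without 1C replicate 1 (7.71% of all genes) and Gbp2 without 1C replicate 3 (8.47%). Gbp2 and RT1-CE13 joined it without Sal replicate 1 (12.2%). Ifit3 was lower in 1C without its replicate 2, beside 7.03% of all genes. Here 0% passed in limma and 3.43% had an unadjusted p under 0.05. In 30C against Sal, Psmb8 was apart and higher by 0.14 ± 0.06 (limma adjusted p = 0.95), beside 4.3% of all genes. No gene was apart there after further quantile normalization or centring, which moved the shares of all genes from 4.3% higher and 4.11% lower to 3.61% and 5.63%, and to 2.49% and 8.24%. Without single arrays of 30C or Sal, Bst2, Ifit3 or Gbp2 also came apart, at most 3 genes, beside 7.11% to 9.99% of all genes. Ifit2 was lower in 30C without Sal replicate 1, beside 8.27% of all genes. Here 0% passed in limma and 5.06% had an unadjusted p under 0.05.

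**Figure D3:**
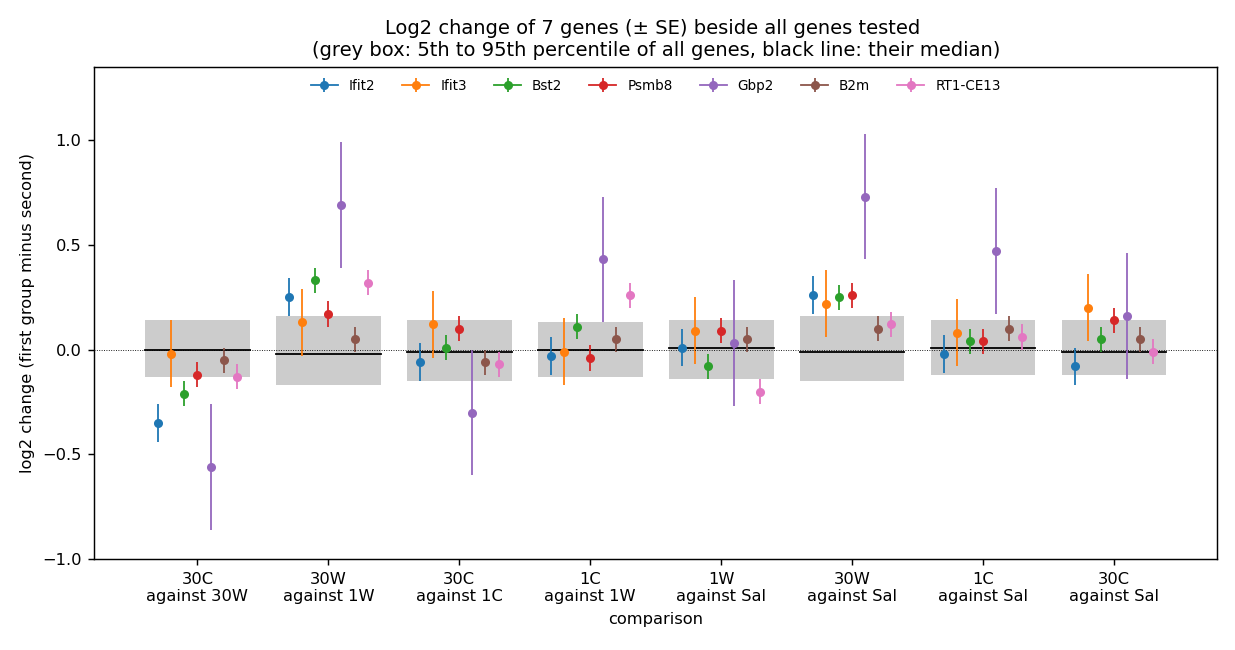
Log2 difference (vertical axis, first group minus second) of each of the 7 genes in the 8 comparisons (horizontal axis), as points with bars of 1 SE, over a grey box from the 5th to the 95th percentile of all 11778 genes and a black line at their median. All 7 points lie above 0 in 30W against 1W and in 30W against Sal, and all 7 lie below 0 in 30C against 30W.

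The same 3 arrays stood out over other genes of the pathway. A list of interferon-stimulated genes without the 7 had 44 genes kept by the filter. Of these, 24 had 30W replicate 1 among their 3 highest arrays, 21 had 30W replicate 3, 24 had 1C replicate 2 and 8 had 30W replicate 2, where an even spread over the arrays gives 8.8. Cxcl10, a chemokine that draws activated T cells, was measured at 8.51 and 8.42 on 30W replicates 1 and 3 and at 9.28 on 1C replicate 2. On the other 12 arrays Cxcl10 ran from 6.16 to 6.75, with 6.53 on 30W replicate 2. Cxcl10, Gbp5 and Cxcl11 are shown because they were among the nearest in pattern to Gbp2 or Ifit2, so a like order of arrays follows in part from that choice. The same 3 arrays were highest for Gbp5, a GTPase of the same family as Gbp2, at 7.74, 7.40 and 7.51, with 6.91 on the next array. They were also highest for Cxcl11, a chemokine of the same receptor as Cxcl10, at 6.84, 7.76 and 6.97, with 6.15 on the next. Among the 7 genes this order of arrays held for Gbp2 and Ifit2, whereas Bst2 on 30W replicate 2 lay between the other 2 arrays of 30W. RT1-CE13 was not set apart by these 3 arrays. Nor did all pathway genes follow them, as the counts of 24, 21 and 24 of 44 show. Psmb9, another immunoproteasome subunit, and Ifitm3 followed them in part. Psmb9 was highest on 30W replicates 1 and 3, at 7.53 and 7.38, and then on 30C replicate 3, at 7.25. Ifitm3 was highest on 1C replicate 2 and 30W replicate 1, at 9.54 and 9.08. Next for Ifitm3 came 30C replicate 3, at 9.04, and 30W replicate 3, at 9.01. Psmb9 and Ifitm3 were picked after their values were seen.

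**Figure D4:**
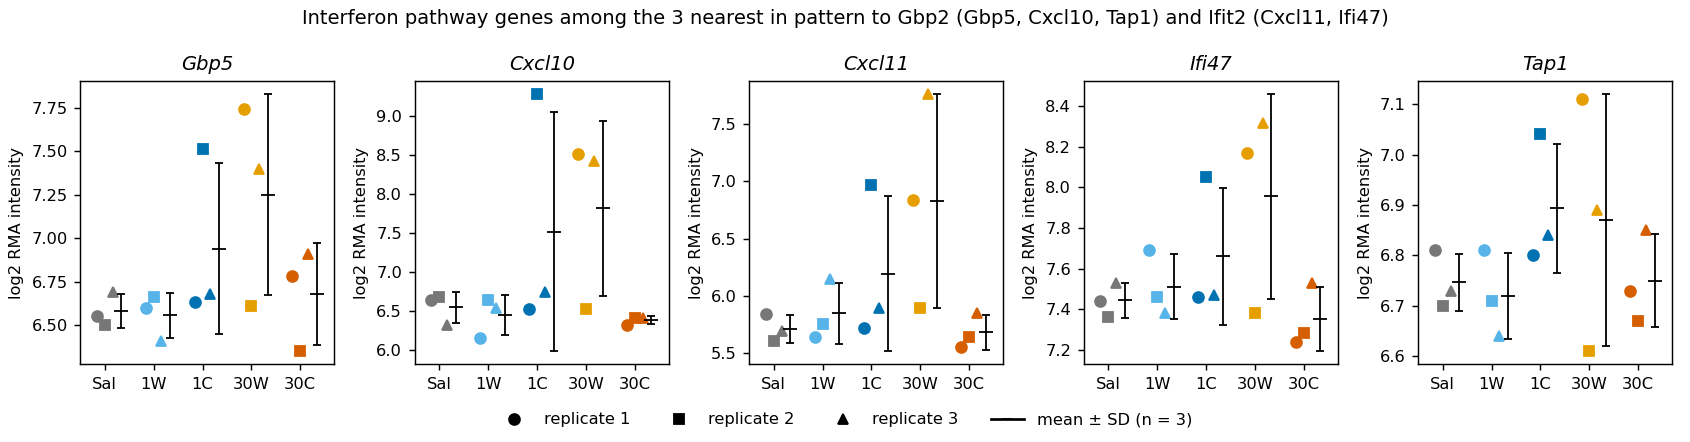
Log2 RMA intensity (vertical axes, separate scales) of Gbp5, Cxcl10, Cxcl11, Ifi47 and Tap1 in the 5 groups (horizontal axes), with 1 symbol per array and the mean ± SD of 3 arrays in black. The genes were picked as nearest in pattern to Gbp2 or Ifit2, so that 30W replicates 1 and 3 and 1C replicate 2 are their 3 highest arrays follows in part from the choice.

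By group, 33 of the 44 interferon-stimulated genes had a higher mean in 30W than in 1W, with a median log2 difference of 0.11, and 32 had a higher mean in 30W than in Sal, with a median of 0.09. In 30C against 30W, 12 were higher and 32 lower, with a median of -0.07. None of the 44 passed the adjusted threshold of limma in any of the 8 comparisons. At an unadjusted p under 0.05, 11 were higher and 1 lower in 30W than in Sal, beside 4.25% and 3.35% of all genes. The number higher was 4 without 30W replicate 1 (3.97% of all genes), 5 without 30W replicate 3 (4.24%) and 16 without 30W replicate 2 (3.08%). Of 35 other class I presentation genes, 26 had a higher mean in 30W than in 1W (median 0.08) and 27 had a higher mean in 30W than in Sal (median 0.08). Of all genes, 39.7% and 44.4% were higher in these 2 comparisons. With centring, the medians in 30W against 1W were 0.07 for the interferon-stimulated list, 0.04 for class I and -0.06 for all genes. In the interferon-stimulated list 5 genes were then apart and higher and 2 lower, in place of 8 and 0. In class I the counts were 2 and 2, in place of 4 and 0. Of all genes, 2.67% were then apart and higher and 22.1% lower, in place of 5.53% and 10.5%. Of 22 genes of interferon receptors and signalling, 10 were higher in 30W than in 1W and 14 higher in 30W than in Sal, with medians of -0.02 and 0.01. Of 13 class II genes, 8 and 11 were higher, with medians of 0.05 and 0.06. No gene of the last 3 lists passed the adjusted threshold in limma in any comparison. The genes of highest level in the lists were Ly6e, Adar and Ifitm3 among the interferon-stimulated genes, at mean log2 intensities of 10.82, 10.10 and 8.86. They were Jak1 (10.03), Ifngr2 (9.89) and Ifngr1 (9.71) in signalling, Canx (12.12), Pdia3 (12.12) and Calr (11.39) in class I, and Ctss (10.97), RT1-DMa (10.78) and Cd74 (9.62) in class II.

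For each of the 7 genes, the 3 genes nearest in pattern over the 15 arrays were found by Pearson r, given as a description, since all points share the arrays and their normalization. The value after leaving out the 2 arrays farthest from the gene's median follows in parentheses. Gbp2 was nearest to Gbp5 at 0.95 (0.86), Cxcl10 at 0.92 (0.81) and the peptide transporter subunit Tap1 at 0.92 (0.74). Ifit2 was nearest to the GTPase Ifi47 at 0.85 (0.54), Cxcl11 at 0.84 (0.55) and the myeloid receptor Trem1 at 0.81 (0.67), so much of its likeness rested on 30W replicates 1 and 3. Bst2 was nearest to the protease Prss16 at 0.89 (0.88), the ubiquitin-like Ubd at 0.85 (0.70) and the RNA sensor Oas3 at 0.84 (0.86). B2m was nearest to the adaptor Shc1 at 0.82 (0.82), the antiviral membrane protein Ifitm3 at 0.81 (0.78) and Gbp2 at 0.80 (0.68).

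The nearest genes of the other members were mostly from outside the pathway. Psmb8 was nearest to Ccn4 at 0.94 (0.87), Kctd19 at 0.86 (0.74) and the transporter Abcc4 at 0.84 (0.72). Ifit3 was nearest to arginase Arg1 at 0.84 (0.72), the matrix protein Thbs1 at 0.83 (0.66) and the receptor Il4r at 0.82 (0.59). RT1-CE13 was nearest to Trim45 at 0.92 (0.86), Fubp1 at 0.86 (0.71) and Dync2i2 at 0.79 (0.64). Between the 7 genes themselves, r ran from 0.20 for Ifit3 and B2m to 0.80 for Gbp2 and B2m. Ifit2 and Ifit3, neighbours on the chromosome, had an r of 0.45 (0.47).

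Markers of other cell types were read on the same arrays. The mean deviation of 24 microglia markers was -0.08 to -0.03 in 30W, 0.02 to 0.18 in 1W and 0.00 to 0.10 in 1C. It was -0.08 to -0.03 in 30C and -0.03 to -0.02 in Sal, so it was lower in 30W than in 1W. The microglia receptor Cx3cr1 ranged from 10.17 to 10.56. Of the 17 lymphocyte markers measured, 7 passed the filter, and their mean deviation was 0.00 to 0.10 in 30W, -0.08 to 0.03 in 1W, -0.09 to -0.02 in 1C, 0.01 to 0.06 in 30C and -0.02 to 0.02 in Sal. The T cell gene Cd3e did not pass the filter, at 5.45 to 5.72, with its highest value on 30W replicate 1. The mean deviation of 23 endothelial and mural markers was -0.06 to 0.05 in 30W and 0.06 to 0.14 in 1W. The endothelial gene Cldn5 ranged from 7.65 to 8.06. Other tissue markers differed within groups: the cortical gene Slc17a7 ranged from 7.16 on Sal replicate 1 to 12.16 on 30C replicate 1. The choroid plexus gene Ttr was 10.20 on 30W replicate 3, 8.84 on 1C replicate 1 and 8.83 on 30C replicate 3, and at most 6.79 on the other arrays. On 30W replicate 1 and 1C replicate 2, where Gbp2 was also high, Ttr was 5.86 and 6.46. Haemoglobin Hbb ranged from 9.86 to 10.97. With the score of microglia markers as a covariate, the log2 difference between 30W and 1W was 0.42 in place of 0.25 for Ifit2, 0.50 in place of 0.13 for Ifit3, 0.44 in place of 0.33 for Bst2, 0.20 in place of 0.17 for Psmb8 and 0.41 in place of 0.32 for RT1-CE13. With the cortical score as a covariate these differences were 0.24, 0.11, 0.32, 0.17 and 0.32, in the same order of genes. The microglia score itself did not overlap between 30W (-0.08 to -0.03) and 1W (0.02 to 0.18). The fit with that score therefore cannot separate it from the group, and no conclusion is drawn from its differences. With either covariate none of the 7 genes passed the adjusted threshold of limma in any of the 6 comparisons given a test. The part of microglia content and of the other marker lists in the levels of the 7 genes was not tested.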

How the data were processed

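The deposited values are on the log2 scale, 1 per probe set and array, and the submitters' processing notes name RMA without a version. RMA corrects background, quantile-normalizes arrays and summarises probes. The labelling kit named in the labels is for 3′ arrays, while the identifiers belong to a whole-transcript array, and the cause of this mismatch was not tested. Of 28826 probe sets, 15209 had 1 symbol in the platform annotation, 306 had several and 13311 were unnamed here. Each of the 14497 genes was represented by its probe set of highest mean over the 15 arrays, and each of the 7 genes has 1 probe set. Genes that at least 3 arrays read higher than their own 30th percentile were kept (11778).

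Groups came from the sample labels. One model with 5 groups was fitted with lmFit and eBayes of limma 3.58.1 (R 4.3.3, residual degrees of freedom 10), with two-sided p-values adjusted by Benjamini-Hochberg over the 11778 genes within each of 8 comparisons and a threshold of 0.05. The fit was tested on simulated data. With 3 arrays against 3, an exact test cannot go below p = 0.1, and the number of arrays limits the precision. Groups were called apart where the arrays of one all lay above those of the other. A list score is the mean over its genes of each gene minus its mean over the arrays.

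The 7 genes and all lists were chosen with earlier results of these data known. By rule, each of the 7 genes is given on every array, with a log2 difference where groups were apart, together with its 3 nearest genes and the 3 genes of highest level in each pathway list. Gbp2 in 30W against Sal, the intervals of Bst2, RT1-CE13 and Ifit2 and the RT1 class I relatives were picked after their values were seen. Alternatives changed normalization, the filter, the probe set, array weights, the variance model and which arrays were fitted, added a replicate block or marker scores as covariates, or left out each array. Leaving out arrays for the counts of groups apart was added after the data were seen. Promoter sequences are from RefSeq, assembly GRCr8.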

Additional observations from a re-analysis of the deposited data

How the results depend on the processing

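In the 6 comparisons given a test, the count of the 7 genes past the adjusted threshold of limma was 0 in all 156 recomputed counts, over 26 alternative settings. In the 2 comparisons on which genes were singled out, such counts are a description and no test: 51 of 52 were 0. The other, 30W against 1W with array weights, was 1 (RT1-CE13, log2 difference 0.34), which supports nothing, since RT1-CE13 was singled out there. The signs of the log2 differences of genes with groups apart were nearly fixed by that choice, so their stability is not offered as a result. Leaving out each array in turn kept the count of the 7 genes past the threshold at 0 in all 8 comparisons. At an unadjusted p under 0.05 in limma, the count of the 7 genes was 0 to 2 under every setting in each of the 5 tested comparisons other than 30W against Sal. In the main fit of those comparisons, 3.43% to 5.48% of all genes had such a p. In 1C against 1W and in 1W against Sal, RT1-CE13 was counted under every setting, and its choice had used the 1W arrays. In 30W against Sal the count was 4 in the main fit, Ifit2 and Bst2 among them, beside 7.6% of all genes. All 4 were higher in 30W, and 4.25% of all genes had such a p and were higher. The count was 3 to 5 under every other setting except the stricter filter. Under that filter the count was 1 (Gbp2), and fewer of the 7 genes were tested. Bst2 entered the filter through its 30W arrays, and the choice of Ifit2 had used the 30W arrays. The counts in 30W against Sal are therefore a description and no evidence. Counts of groups apart that moved are given beside each comparison. With replicate number as a block the count was 0 in every comparison. Arrays of the same number were no more alike by the median than those of other numbers. Arrays of the same number had correlations of their deviations from -0.625 to 0.507 (median -0.00955, 30 pairs). Those of other numbers had correlations from -0.508 to 0.598 (median -0.00697, 60 pairs). Pairing limited to some genes or some groups was not tested. Bst2, Psmb8 and Ifit3 lie near the filter and among the 1177 genes of lowest level, and on further scaling Ifit3 and Psmb8 overlapped between 30W and 1W while Bst2 did not.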
